A study of Mus musculus with 4 samples.

Results

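The 66 genes described here encode translation initiation factors (symbols Eif and a digit) and elongation factors (symbols Eef and a digit), together with the repressors and enzymes that carry the same names. They were taken from the 21887 protein-coding genes of RefSeq on the placed chromosomes of mouse build GRCm38 (mm10), leaving out the Eif2ak kinases and Eef1e1, a protein of the aminoacyl-tRNA synthetase complex. The study mapped Pcbp1 on chromatin by immunoprecipitation and sequencing (ChIP-seq) in the mouse embryonic stem cell line E14 Tg2a. Naive cells had been kept for 3 passages in serum-free N2B27 medium with LIF, the MEK inhibitor PD0325901 and the GSK3 inhibitor CHIR99021. Primed epiblast-like cells (EpiLC) were made from such cells by 48 hours on fibronectin with bFGF, Activin A and KOSR, a serum replacement. Each state had 1 Pcbp1 library and 1 input library, all from this 1 line, and no genetic change is given in the labels. The authors deposited 1 peak list per state, with 12132 Naive and 3494 EpiLC peaks. A gene was counted as bound at a gene end when the summit of a peak, its highest point, lay within 1 kb of either annotated end.

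With 1 library per state there was no replicate error and no test between states was possible. The fold is the authors' enrichment at the summit over the local background of their peak caller. The interval given with a fold is a 95% Poisson interval from the number of fragments piled up at the summit. It covers counting error only. The binomial intervals given for shares and medians run over genes within 1 library per state. They leave out variation between libraries and do not test a difference between states. A gene missing from a list had no peak past the authors' threshold, and that is not evidence that Pcbp1 was absent. The genome-wide background read from the peaks differed 1.86-fold, at 7.43 fragments for EpiLC against 4.004 for Naive. Whether this came from sequencing depth was not tested, as read totals are not given. As a look at the state labels, 6 of 8 marker genes of the naive state, Nanog and Zfp42 among them, carried such a peak in the Naive list and 1 of 8 in the EpiLC list. For 8 primed markers, Fgf5 and Pou3f1 among them, the counts were 0 and 5. No such peak was found in either list at the naive markers Esrrb and Dppa3 or at the primed markers Otx2, Zic2 and Sox3. Fibroblast and endoderm markers had 0 of 8 in Naive and 2 of 8, Thy1 and Gata6, in EpiLC. Over all protein-coding genes the shares with such a peak were 19.3% in Naive and 5.61% in EpiLC. Peaks record binding and not expression, so these counts do not check the cell type itself.

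Pcbp1 is a protein with KH domains that binds C-rich stretches of RNA and single-stranded DNA, and it acts in splicing, translation and iron delivery. Its ChIP-seq signal can come from DNA contact or from contact through RNA or other proteins at a gene. Translation begins when eIF2 brings the initiator tRNA to the small ribosomal subunit, eIF3 holds the subunit open for mRNA, and the eIF4 factors recognise the cap and unwind the leader. Start-codon choice by eIF1, eIF1A and eIF5 follows, and elongation is then driven by eEF1A, which delivers charged tRNAs, and eEF2, which moves the ribosome. In embryonic stem cells protein synthesis is kept low and rises as the cells leave the naive state.

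Starting letters of some of these genes are shown first because Pcbp1 is a C-binding protein. The 5 genes Eef2, Eif1ad, Eif3d, Eif2s3x and Eif3c had peaks in both lists and at least 1 summit inside the promoter window, which runs from 250 bases before to 50 after the annotated start. Eef1a1 and Eef1a2 are a paralogue pair of which the former had peaks in both lists and the latter in neither. Sequences are from RefSeq, build GRCm38.p6, 5′ to 3′ on the gene's own strand, from 250 bases before the start to the 20th transcribed base. Capitals mark every run of at least 4 C, or of at least 4 G, which is a C run on the other strand. The stretches lie at chr10:81176381-81176650 (plus strand) for Eef2, chr19:5366563-5366832 (plus) for Eif1ad, chr15:77970805-77971074 (minus) for Eif3d, chrX:94212632-94212901 (minus) for Eif2s3x, chr7:126566347-126566616 (minus) for Eif3c, chr9:78481705-78481974 (minus) for Eef1a1 and chr2:181156996-181157265 (minus) for Eef1a2.
Eef2: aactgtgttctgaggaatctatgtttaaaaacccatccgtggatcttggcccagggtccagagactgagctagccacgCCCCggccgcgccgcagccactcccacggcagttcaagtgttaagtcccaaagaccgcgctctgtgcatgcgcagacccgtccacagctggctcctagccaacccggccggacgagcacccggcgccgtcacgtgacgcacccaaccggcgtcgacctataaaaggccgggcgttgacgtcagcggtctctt
Eif1ad: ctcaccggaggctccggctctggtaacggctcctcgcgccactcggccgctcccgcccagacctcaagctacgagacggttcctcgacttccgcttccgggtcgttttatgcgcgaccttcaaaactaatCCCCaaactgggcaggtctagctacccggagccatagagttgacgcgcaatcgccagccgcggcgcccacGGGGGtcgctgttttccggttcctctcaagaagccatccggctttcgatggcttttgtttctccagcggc
Eif3d: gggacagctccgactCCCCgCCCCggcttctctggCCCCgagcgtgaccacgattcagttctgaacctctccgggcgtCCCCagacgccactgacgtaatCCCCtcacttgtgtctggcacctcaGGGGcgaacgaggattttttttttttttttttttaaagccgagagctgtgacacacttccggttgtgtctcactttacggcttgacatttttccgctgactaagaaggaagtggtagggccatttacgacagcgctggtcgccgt
Eif2s3x: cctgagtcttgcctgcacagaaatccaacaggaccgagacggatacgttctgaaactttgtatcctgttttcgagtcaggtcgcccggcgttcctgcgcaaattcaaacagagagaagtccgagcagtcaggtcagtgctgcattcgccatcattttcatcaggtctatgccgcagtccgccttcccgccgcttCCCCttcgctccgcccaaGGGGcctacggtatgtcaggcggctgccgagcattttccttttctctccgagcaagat
Eif3c: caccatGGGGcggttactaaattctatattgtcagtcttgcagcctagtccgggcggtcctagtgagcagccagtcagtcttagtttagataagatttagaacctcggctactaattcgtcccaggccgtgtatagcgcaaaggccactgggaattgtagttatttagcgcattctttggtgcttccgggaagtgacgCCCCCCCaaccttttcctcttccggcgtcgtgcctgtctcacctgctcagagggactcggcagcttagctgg
Eef1a1: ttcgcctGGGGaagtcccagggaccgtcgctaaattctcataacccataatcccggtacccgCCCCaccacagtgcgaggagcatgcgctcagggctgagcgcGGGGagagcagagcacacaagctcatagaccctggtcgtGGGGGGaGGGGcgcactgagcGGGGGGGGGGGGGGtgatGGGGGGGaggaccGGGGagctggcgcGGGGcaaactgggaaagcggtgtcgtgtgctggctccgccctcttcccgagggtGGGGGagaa
Eef1a2: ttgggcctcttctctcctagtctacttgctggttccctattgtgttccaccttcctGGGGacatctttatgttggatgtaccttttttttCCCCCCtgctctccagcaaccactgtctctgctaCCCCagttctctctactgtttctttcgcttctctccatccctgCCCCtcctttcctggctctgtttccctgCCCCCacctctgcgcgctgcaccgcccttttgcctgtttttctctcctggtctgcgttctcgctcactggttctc

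These stretches held between 1 run (Eef2) and 10 runs (Eef1a1, with the longest, of 14 G). The number of runs differed widely among the bound genes. In Naive, Eef1a1, with 10 runs, had a fold of 8.13, Eef2, with 1 run, had 5.81, and Eef1a2, with 5 runs, had no peak. Whether the runs bear on Pcbp1 binding was not tested. Distances were measured only to runs within these stretches, so a run outside them could lie nearer. The Naive summit lay 7 bases from the nearest run at Eif1ad and 6 at Eif3d, but 41 at Eef2, 86 at Eif3c and 141 at Eif2s3x. The labels place the chromatin fragments at around 500 bp, so distances of this size are below what the fragments resolve.

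Gene-end peaks were found at 35 of the 66 genes in Naive (53.0%, 95% exact binomial interval 40.3 to 65.4), beside 19.3% of all protein-coding genes. In EpiLC they were found at 17 of 66 (25.8%, 15.8 to 38.0), beside 5.61% of all genes. Of the 66, 15 had one in both lists (22.7%, 13.3 to 34.7; 4.09% of all genes), 20 in Naive alone (30.3%; 15.2% of all genes), 2 in EpiLC alone (3.03%; 1.52% of all genes) and 29 in neither. A CpG-rich promoter window was found at 37 of the 50 factor genes with a window in the RefSeq table (74%) and at 41.3% of all genes with one. Among the 7219 genes whose promoter window had at least 55% GC and a CpG ratio of at least 0.6, a comparison chosen after seeing the data, the share with such a peak was 32.1% for Naive and 8.51% for EpiLC. The 37 factor genes with such a window had 19 in Naive (51.4%, 34.4 to 68.1) and 13 in EpiLC (35.1%, 20.2 to 52.5). In both lists were 11 of the 37 (29.7%, 15.9 to 47.0), beside 6.75% of the 7219, in Naive alone 8 (21.6%), beside 25.3%, and in EpiLC alone 2 (5.41%), beside 1.76%.

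The larger Naive count went with the longer Naive list. When the Naive list was shortened to its 3494 peaks of lowest p-value, as many as in EpiLC, 14 factor genes had a Naive gene-end peak against 17 in EpiLC, beside 5.45% and 5.61% of all genes. Of the 22 genes then found in either list, 9 were in both (40.9%, beside 27.7% of the 1895 genes of all kinds found in either): Eef1a1, Eef1b2, Eef2, Eif1ad, Eif2s3x, Eif3b, Eif4a1, Eif4a2 and Eif4b. The 5 in Naive alone (22.7%, beside 35.2%) were Eef1akmt3, Eef1d, Eif2b1, Eif2b4 and Eif2s2. The 8 in EpiLC alone (36.4%, beside 37.1%) were Eef1akmt4, Eef1akmt4-ece2, Eif1, Eif2s1, Eif3c, Eif3d, Eif4ebp1 and Eif5.

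**Figure D1:**
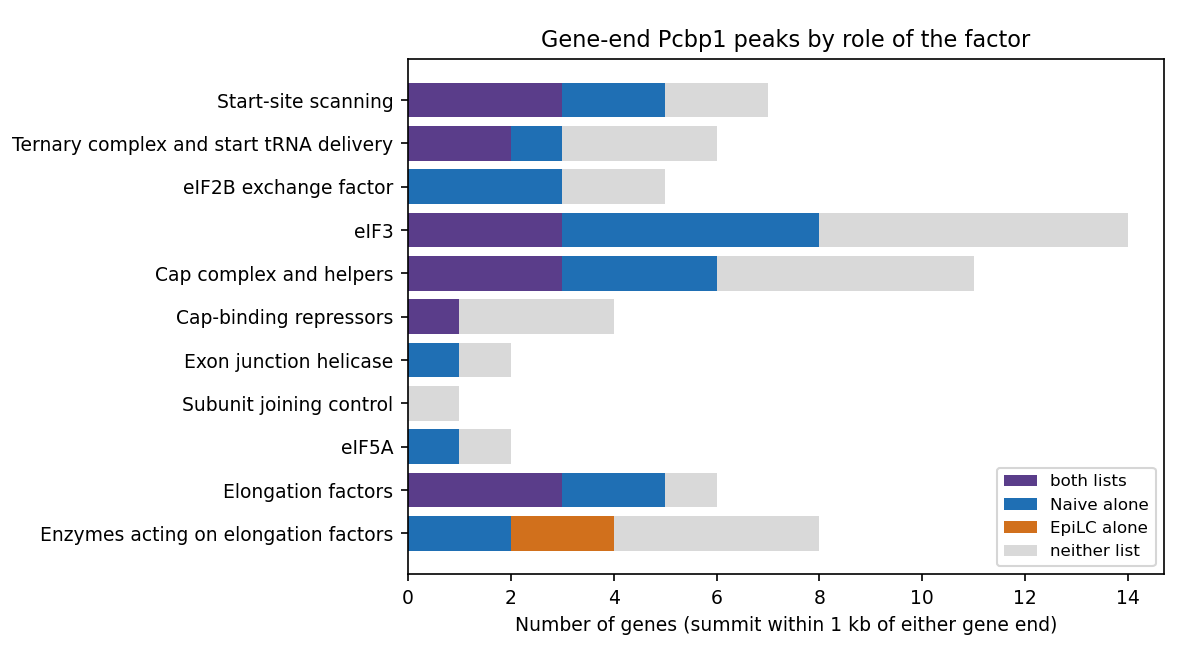
Number of factor genes (horizontal axis) with a gene-end peak in both lists, in Naive alone, in EpiLC alone or in neither, for each role (rows). Roles were assigned by gene symbol. Elongation factors had Naive peaks at 5 of 6 genes (exact interval 35.9% to 99.6%), beside 53.0% of all 66 factor genes and 19.3% of all genes. The eIF2B exchange factor, the exon junction helicase, subunit joining control and eIF5A, each of at most 5 genes, had none in EpiLC, beside 5.61% of all genes. The enzymes acting on elongation factors had no gene with a peak in both lists, 0 of 8, beside 4.09% of all genes. In groups this small, counts of 0 are near those shares.

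By symbol, 7 genes were grouped under start-codon scanning, which does not show that each product acts in it. Of these, 5 were bound at a gene end in Naive (71.4%, 29.0 to 96.3), beside 19.3% of all genes. In EpiLC 3 of the 5 were bound as well (42.9% of the 7, 9.90 to 81.6), beside 5.61%. Eif1ad, named for its eIF1A-like domain (chromosome 19, 5366813 to 5371518), had the highest Naive fold of these, 7.84 (5.72 to 10.5), and an EpiLC fold of 3.89 (2.86 to 5.18). That peak also lay at the end of Banf1, so it cannot be given to either gene. Eif1, whose protein guards start-codon choice (chromosome 11, 100319949 to 100322099), had a Naive fold of 4.78 (3.18 to 6.92) and an EpiLC fold of 2.61 (1.87 to 3.54). Its EpiLC peak overlapped a second, lower Naive peak of 3.13 and not the highest one. Eif5, the GTPase-activating partner of eIF2 (chromosome 12, 111538101 to 111546753), was the gene of the 15 whose EpiLC fold was the higher, at 3.78 (2.88 to 4.88) against 3.52 (2.39 to 4.999), with overlapping intervals. Eif1a (4.51, at a peak shared with Tmed7) and Eif1b (3.40) had a peak in Naive alone. Eif1ax, the X-linked copy of Eif1a, and Eif5b, whose GTPase joins the ribosomal subunits, had none.

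Of the 3 eIF2 subunits, alpha and gamma had peaks in both lists and beta in Naive alone. Eif2s1, the alpha subunit that stress kinases phosphorylate (chromosome 12, 78862072 to 78887010), had a Naive fold of 5.40 (3.59 to 7.81) and an EpiLC fold of 2.65 (1.96 to 3.51), at peaks shared with Atp6v1d. Eif2s3x, the X-linked gamma subunit (chromosome X, 94188709 to 94212651), had 6.79 (4.74 to 9.46) and 3.22 (2.34 to 4.33). Eif2s2, the beta subunit (chromosome 2, 154871410 to 154892906), had 6.19 (4.24 to 8.76) in Naive alone, at a peak 1089 bp wide. At Eif2s1 and Eif2s3x the Naive interval lay above the EpiLC one. With pileups over the genome-wide background in place of folds, the ratios of Naive to EpiLC were 1.03 and 1.46. Eif2s3y, the Y-linked gamma copy, and Eif2a and Eif2d, which can bring tRNA to the ribosome without eIF2, had no gene-end peak. The near-identical sequence of Eif2s3x and Eif2s3y can draw reads from the same fragments, and the handling of such reads is not stated in the labels.

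The eIF2B complex, which reloads eIF2 with GTP, had gene-end peaks at 3 of its 5 subunit genes, each in Naive alone. The Naive share was 60.0% (14.7 to 94.7), beside 19.3% of all genes. Eif2b4, the delta subunit (chromosome 5, 31187558 to 31193139), had 6.51 (4.61 to 8.95) at a peak shared with Snx17. Eif2b1, the alpha subunit, had 5.04 (3.47 to 7.09) at a peak shared with Gtf2h3, and Eif2b3, the gamma subunit, had 3.34 (2.05 to 5.18). Eif2b5, which encodes the catalytic subunit, and Eif2b2 had none. A count of 0 of 5 in EpiLC has an exact interval of 0% to 52.2%, so it did not set eIF2B apart from the other roles.

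The eIF3 complex had gene-end peaks at 8 of its 14 genes in Naive (57.1%, 28.9 to 82.3), beside 19.3% of all genes. In EpiLC it had 3 (21.4%, 4.66 to 50.8), beside 5.61%, all 3 of them also in Naive. Eif3b, a scaffold subunit (chromosome 5, 140419305 to 140443358), had a Naive fold of 7.01 (4.94 to 9.67) and an EpiLC fold of 2.39 (1.78 to 3.14), the highest ratio of folds of the 15 genes, though not of pileups. Eif3d, the subunit that can hold a cap (chromosome 15, 77958998 to 77970824), had 5.11 (3.37 to 7.45) and 3.36 (2.40 to 4.58). Eif3c, a core subunit (chromosome 7, 126546911 to 126566366), had 4.57 (2.97 to 6.77) and 3.04 (2.05 to 4.34). The intervals overlapped at Eif3c and Eif3d and not at Eif3b. In Naive alone were Eif3e (5.10), Eif3m (5.07), Eif3a (4.77), Eif3i (4.23, at a peak shared with Tmem234) and Eif3l (3.25). Eif3f, Eif3g, Eif3h, Eif3j1, Eif3j2 and Eif3k had no gene-end peak, so peaks covered part of the complex and not all of it.

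The cap-binding complex and its helpers held the 2 highest Naive folds of the family, at Eif4a2 and Eif4b. Eif4a2, an RNA helicase of the cap complex (chromosome 16, 23107468 to 23114132), had a Naive fold of 10.3 (7.92 to 13.2) and an EpiLC fold of 4.76 (3.78 to 5.92). Its Naive peak spanned 1322 bp (chromosome 16, 23107475 to 23108796) and ranked 266 by fold of the 12132. Eif4b, which stimulates the helicase (chromosome 15, 102073773 to 102097173), had 9.19 (6.76 to 12.2) and 3.78 (2.97 to 4.76). Eif4a1, the paralogue of Eif4a2 (chromosome 11, 69666936 to 69672423), had 6.34 (4.45 to 8.79) and 4.32 (3.23 to 5.67). At Eif4a2 and Eif4b the Naive interval lay above the EpiLC interval, while at Eif4a1 they overlapped. The summits of the 2 lists lay 9 bp apart at Eif4a2, 13 at Eif4a1 and 21 at Eif4b, the closest of the 15 genes.

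Other cap-complex genes had peaks in Naive alone or none. Eif4g2, a scaffold that lacks the eIF4E site, had 4.60 (2.95 to 6.86), Eif4e, the cap-binding protein itself, had 3.80 (2.39 to 5.78), and Eif4e2, a cap-binding relative, had 3.68 (2.39 to 5.44). The scaffold genes Eif4g1 and Eif4g3 had none, and neither did Eif4h, Eif4e1b or Eif4e3. Of the repressors, Eif4ebp1, which holds eIF4E until mTORC1 phosphorylates it (chromosome 8, 27260327 to 27275656), had a Naive fold of 3.42 (2.22 to 5.05) and an EpiLC fold of 2.67 (1.93 to 3.61), with overlapping intervals. Eif4ebp2, Eif4ebp3 and Eif4enif1 had no gene-end peak. Eif4a3, the helicase of the exon junction complex, had 3.59 in Naive with the summit 11 bp from its start, and its copy Eif4a3l1 had none. Eif5a, which helps the ribosome through difficult peptide bonds, had the lowest Naive fold of the family at 2.99 (1.81 to 4.69). Its relative Eif5a2 and Eif6, which keeps large subunits from joining early, had none.

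Elongation factor genes carried peaks at 5 of 6 genes in Naive and 3 of 6 in EpiLC. Eef1a1, the main carrier of charged tRNA (chromosome 9, 78478453 to 78481724), had a Naive fold of 8.13 (5.98 to 10.8) and an EpiLC fold of 4.83 (3.77 to 6.10), the latter the highest of the family. It had 3 gene-end peaks in Naive, and of the other 2 that of fold 4.16 lay inside the gene, 924 bp from its far end, and that of 3.27 lay 421 bp upstream of the start. Eef2, the translocase (chromosome 10, 81176631 to 81182509), had 5.81 (4.08 to 8.06) and 4.46 (3.57 to 5.52), and a second Naive peak of 4.28 lay past its other end, near Dapk3. Eef1b2, an exchange subunit for eEF1A (chromosome 1, 63176831 to 63180486), had 6.33 (4.36 to 8.90) and 4.58 (3.48 to 5.93), at peaks shared with Ndufs1. All 3 pairs of intervals overlapped. Eef1d (5.82, shared with Tigd5) and Eef1g (4.60), the other subunits of that exchange complex, had a peak in Naive alone. Eef1a2, the paralogue of Eef1a1 used in neurons and muscle, had its nearest Naive summit 130436 bp away.

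The enzymes that modify or regulate elongation factors had no gene with a peak in both lists, 0 of 8 (exact interval 0% to 36.9%). Over all genes the share was 4.09%, so the 0 says nothing about the enzymes. None was in both lists either for eIF2B, the exon junction helicase, eIF5A and Eif6, each a group of at most 5 genes. Eef1akmt3, an eEF1A lysine methyltransferase, had 5.59 (3.88 to 7.82) in Naive at a peak shared with Mettl1, and Eef1akmt2 had 5.24 (3.51 to 7.53). Eef1akmt1, Eef1aknmt, Eef2k, the eEF2 kinase, and Eef2kmt had none. The 2 genes counted in EpiLC alone, Eef1akmt4 and the readthrough gene Eef1akmt4-ece2, share a start and the same peak of 3.09 (2.30 to 4.06), which also lay at Alg3. Its summit was 943 bp from the start, just inside the 1 kb limit, and a Naive summit of fold 6.27 lay 1002 bp away, just outside it. When any base of a peak within 1 kb was counted, 17 genes had a peak in both lists and none was left in EpiLC alone. On the other side of the limit, an EpiLC summit of 3.15 lay 1492 bp from an end of Eif5a.

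**Figure D2:**
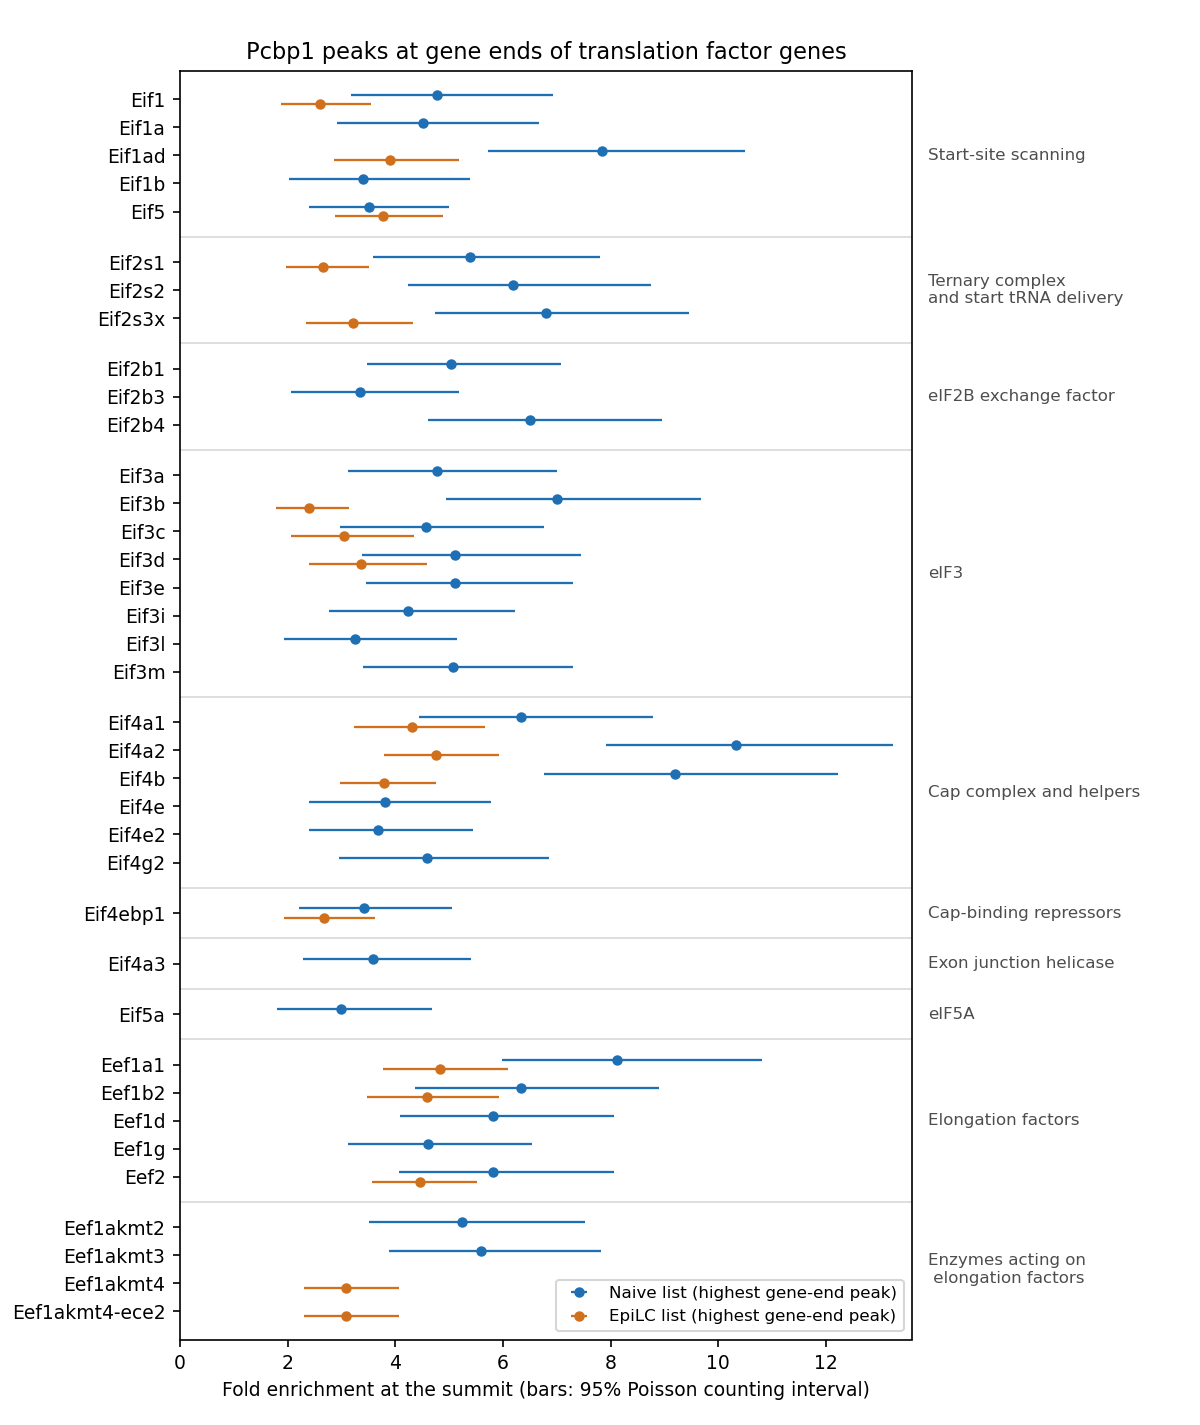
Fold enrichment of the highest gene-end peak (horizontal axis, linear from 0) for the 37 factor genes with a peak in either list, grouped by role, with 95% Poisson counting intervals as bars. Naive folds run from 2.99 at Eif5a to 10.3 at Eif4a2, and EpiLC folds from 2.39 at Eif3b to 4.83 at Eef1a1.

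Peak heights at the factor genes were close to those at other genes with a peak. The median Naive fold of the 35 genes was 5.07 (binomial interval of the median 4.57 to 5.81), against 4.58 for all 4230 genes with a Naive gene-end peak. The median EpiLC fold of the 17 genes was 3.36 (3.04 to 4.32), against 3.34 for all 1228. A fold of at least 5 in EpiLC was reached by 0 of the 66 genes, beside 0.676% of all genes, a share so small that the 0 says nothing about the factor genes. Naive peaks at factor genes were wider, with a median of 509 bp (426 to 716) against 392 bp, and EpiLC peaks had a median of 436 bp (360 to 635) against 329.5 bp. The widest were those of Eif4a2 in Naive and of Eef1a1 and Eef2 in EpiLC, at 1322, 1360 and 1283 bp. Within the family, genes found in both lists had higher Naive folds (median 6.33, 4.78 to 7.84, n = 15) than genes in Naive alone (4.60, 3.68 to 5.10, n = 20). The same held over all genes, at 5.60 and 4.396.

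Among the 15 genes in both lists the Naive fold was the higher at 14, with a median ratio of 1.68 (1.38 to 2.11). The ratio was 1.66 over the 895 genes with a peak in both lists, where the Naive fold was the higher at 89.9%. The Naive counting interval lay wholly above the EpiLC interval at 6 of the 15 genes, Eif4a2, Eif4b, Eif1ad, Eif2s1, Eif2s3x and Eif3b, and the reverse was seen at 0. Over all 895 genes these shares were 37.1% and 0.447%. The fold divides by the local background, and this background stood higher above the genome-wide level in EpiLC, with a median of 1.93 at the 17 factor genes, than in Naive, with a median of 1.15 at the 35. Over all genes with such a peak the medians were 1.85 in EpiLC and 1.13 in Naive. With the pileup at the summit set against the genome-wide background instead, the median ratio was 1.23 (1.03 to 1.41) for the factor genes and 1.11 for all 895. The intervals of both median ratios run over genes and not over libraries, so they do not show a difference between the states.

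On that pileup scale the order of some genes changed. Eif3b had a ratio of 2.94 in fold and 1.33 in pileup, and its EpiLC summit held 49 fragments over a local background 2.68 times the genome-wide level. Eif2s1 went from 2.03 to 1.03, Eif4b from 2.43 to 1.18, Eif4a2 from 2.17 to 1.41 and Eif2s3x from 2.11 to 1.46. Eef2 went from 1.30 to 0.751, with 34 fragments at the Naive and 84 at the EpiLC summit, the most of any factor gene in EpiLC. Eif1ad had the highest pileup ratio, 1.77, with 43 and 45 fragments in libraries whose backgrounds differed 1.86-fold. Eif5 stayed below 1 on both scales, at 0.9303 and 0.944. Which of the scales is nearer to Pcbp1 occupancy was not tested.

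**Figure D3:**
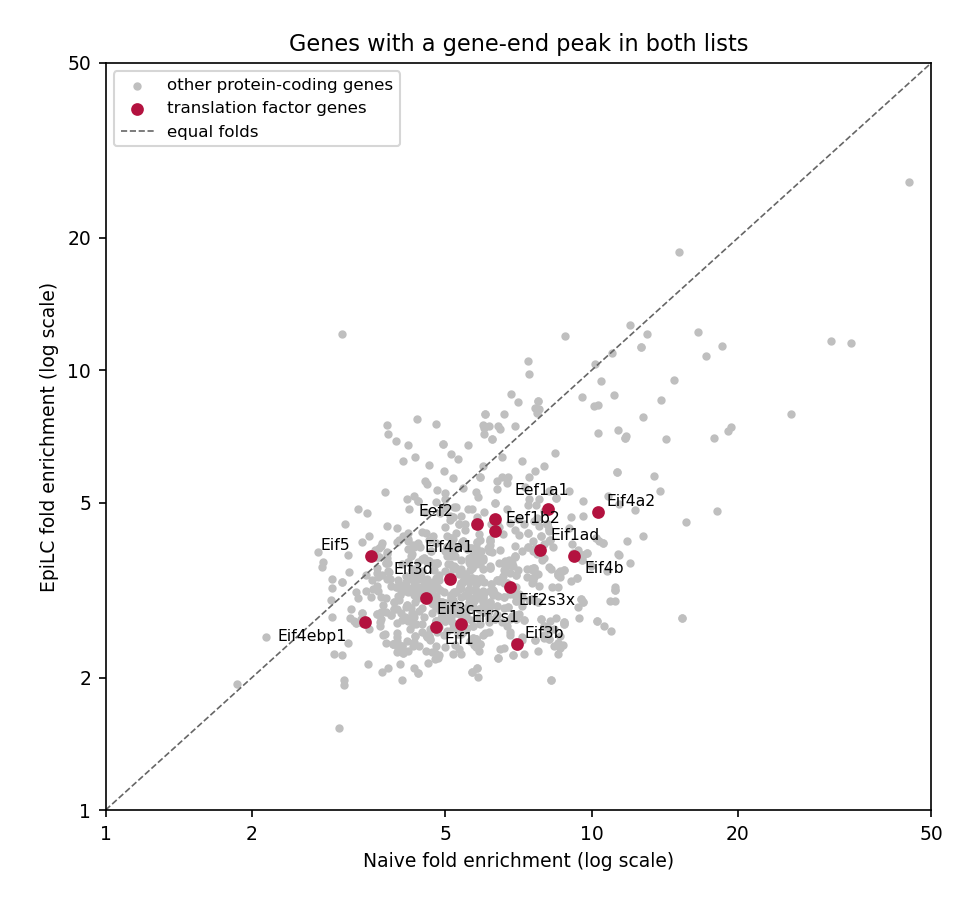
Naive fold (horizontal axis) against EpiLC fold (vertical axis), both on log scales, for the 895 protein-coding genes with a gene-end peak in both lists, with the 15 factor genes in red and named. All but Eif5 of the factor genes lie below the dashed line of equal folds, within the spread of the other genes.

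The highest peaks were placed relative to the annotated starts. A strand and start were given for 50 of the 66 genes. The highest Naive peak was within 1 kb of an annotated start at all 26 of these genes with a Naive peak, an exact interval of 86.8% to 100% beside 91.1% of all genes with such a peak. The highest EpiLC peak was so placed at all 16 (79.4% to 100%), beside 88.1%. Lower Naive peaks lay near the far end of Eef2 (4.28), Eif4a1 (3.22, at Cd68) and Eef1a1 (4.16). At 13 of the 26 genes the summit lay more than 100 bp downstream of the start (50%, 29.9 to 70.1). The farthest were Eif1b (614 bp), Eif3a (602 bp), Eif2s2 (535 bp), Eef1a1 (521 bp) and Eif4a1 (492 bp). At the other 13 the summit lay upstream, from 11 bp at Eif4a3 to 478 bp at Eif4e, which has a second annotated start. Of the 3189 genes of all kinds with the highest Naive peak within 1 kb of a start, 39.98% had it more than 100 bp downstream. That share lay inside the binomial interval of the factor genes.

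Naive and EpiLC peaks overlapped by at least 1 bp at all 15 genes with both, beside 93.6% of the 895 genes of all kinds with both. The highest summits of the 15 genes were a median of 132 bp apart and within 100 bp at 7 (46.7%, 21.3 to 73.4), beside 63.6% of the 895. At Eif3c the Naive summit lay 138 bp upstream of the start and the EpiLC summit 355 bp downstream. At Eef1b2 both were downstream, at 125 and 558 bp. The positions at Eif4a1, Eif4a2, Eif4b and Eef1a1 differed by no more than 53 bp.

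**Figure D4:**
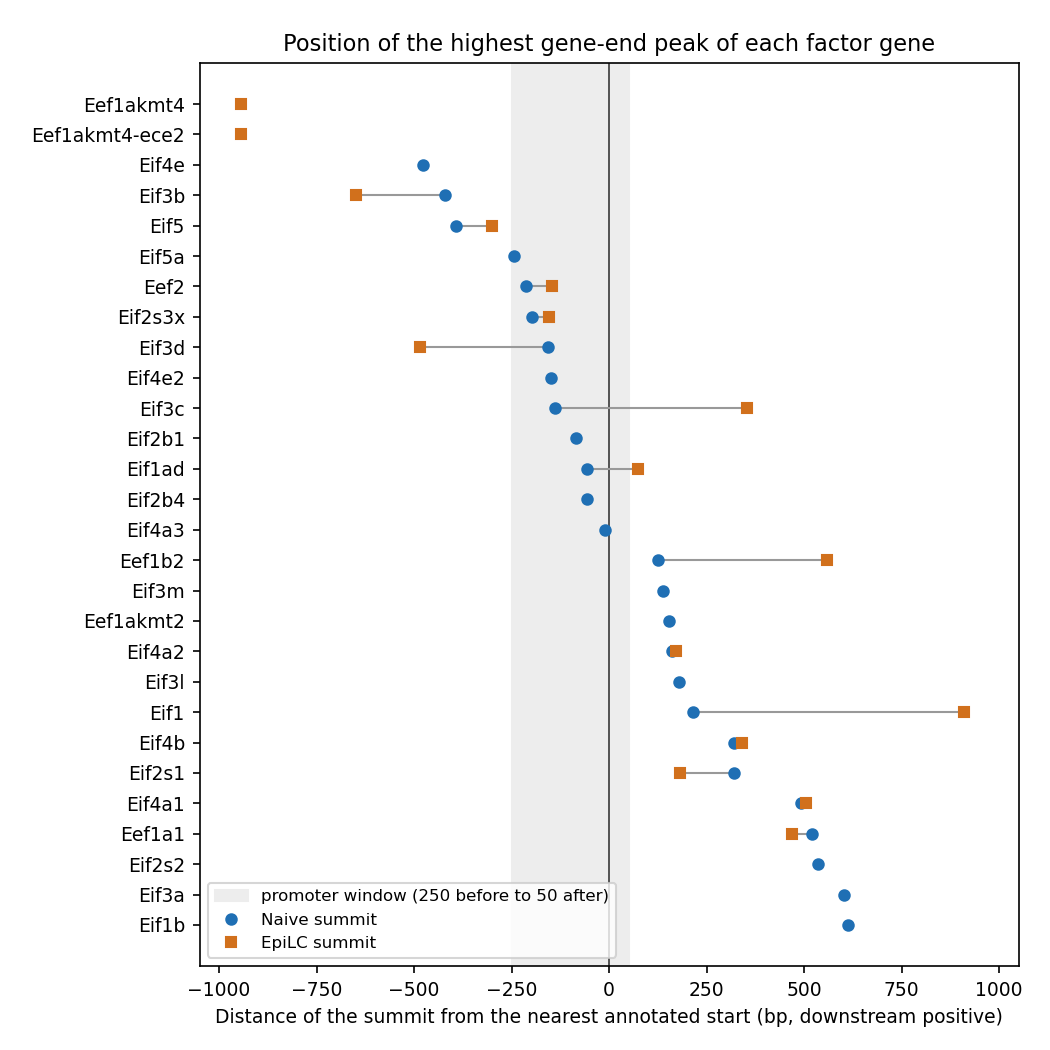
Distance in bp of the highest Naive summit (circles) and EpiLC summit (squares) from the nearest annotated start, downstream positive, for the 28 factor genes with a peak and a known start. Grey lines join the summits of the same gene, and the shaded band is the promoter window. Summits at Eif4a1, Eif4a2, Eif4b and Eef1a1 lie downstream at nearly the same place in both lists.

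The highest Naive peak of 9 of the 35 genes (25.7%, 12.5 to 43.3) also lay within 1 kb of another protein-coding gene's end, beside 36.2% of all genes with a Naive peak, which lies inside that interval. More than 1 Naive gene-end peak was found at 7 of 35 genes (20.0%, 8.44 to 36.9), beside 11.1% of all genes with a Naive peak. Without peaks near another gene, 26 genes were left in Naive and 12 in EpiLC, beside 12.5% and 3.88% of all genes.

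The promoter windows of 50 factor genes were searched for letters known as binding motifs. Each motif was searched on both strands of the window of 300 bases, 1 window per gene. A run of CCCC was in 46 of 50 factor windows (92.0%) and in 87.2% of all 17492 windows, and the C-rich letters CCCTCCC in 30.0% and 24.0%. CCCTCCC was in 6 of 26 windows of factor genes with a Naive peak (23.1%) and in 9 of 24 without (37.5%). The GC box GGGCGG, read by Sp and Klf factors, was in 74.0% of factor windows and 46.3% of all. CCGGAAG, the core of Ets sites, was in 28.0% and 11.9%, and in 25.3% of all genes with a Naive gene-end peak. CACGTG, the E-box of Myc, was in 13 of 50 and in 7.91% of all windows. By Naive peak it was in 4 of 26 bound and 9 of 24 unbound factor windows. The Nrf1 motif was in 1 of 50, and the Kaiso and Yy1 motifs in 0. A start of C followed by at least 4 pyrimidines, as in mRNAs under mTORC1 control and searched for after seeing the data, was found at the annotated starts of 2 of 50 genes, Eif2s3x and Eif3f, beside 2.17% of all. Only letters from base 1 of the annotated start were counted. A start used a few bases away was missed, and at Eef2 the first 20 transcribed bases end in ctctt. The count therefore does not show which genes have such mRNAs. Median GC was 61.0% with a Naive peak and 62.3% without. These are counts of letters, and Pcbp1 binding to them was not tested.

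The 29 factor genes in neither list had their nearest Naive summit a median of 40219 bp from a gene end (lowest 3768 bp, at Eif4ebp3). In EpiLC the median distance was 129693 bp. A Naive summit lay inside the gene body of 2 of the 29, Eif4g3 and Eef1akmt1, and an EpiLC summit in 0. CpG-rich windows were found at 18 of 24 factor genes without a Naive peak and at 19 of 26 with one.

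Other genes of the pathway that do not carry a factor's name or were left out by the rule were listed as well. Of 48 such genes, 19 were bound in this way in Naive and 5 in EpiLC, beside 19.3% and 5.61% of all genes. Regulators, among them the Eif2ak kinases, had 5 and 2 of 10, with both lists at Ppp1r15a (3.07 in Naive, 3.29 in EpiLC) and Ppp1r15b (5.31 and 2.51), whose products lead the phosphatase to eIF2 alpha. Termination and rescue genes had 3 and 1 of 6, with Etf1, the release factor, at 5.24 and 2.38. Enzymes that modify factors had 4 and 1 of 9, with Dph6, of diphthamide synthesis on eEF2, at 5.60 and 3.31. Mitochondrial factors had 5 and 0 of 10, and partners at the cap and start codon, such as poly(A)-binding proteins, 2 and 1 of 13.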

How the data were processed

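Per the submitters' processing notes the data went through fastp, Bowtie2, Picard and MACS2 on GRCm38 (mm10). Versions and the order of use are not stated. Which control the caller used is likewise not stated. The authors deposited for each peak a fold enrichment (a ratio over the background of the caller), a −log10 p-value and a −log10 q-value, with the lowest −log10 q at 2.02 in both lists, a whole-number score made from the q-value, which was not used, and the summit position. Read totals are not given there, so the background was read from the peaks. Whole numbers were searched for the pileup that, with the fold, gave the p-value, and the closest match was used. A match within 0.001 of the −log10 p-value was found for 100% of peaks in each list. The recovery returned 100% of 3000 pileups simulated with the same formulas. The lowest local background found in a list stands for the genome-wide one. Genes and promoter windows came from RefSeq tables of GRCm38.p6, in which 50 of the 66 genes and 17492 of 21887 protein-coding genes had a promoter entry. Where a gene had several peaks in a list, the highest fold was used. Every gene with peaks in both lists or in EpiLC alone is given with values, and the 10 highest in Naive alone. The other 10 in Naive alone are also given with values, a choice made after their values were seen. The genes and lists were chosen with earlier results of these data known. Alternatives were windows of 500 and 3000 bp, a −log10 q or a fold of at least 5, a shortened Naive list, any base of a peak, the factors without enzymes and repressors, an overlap of 50% of the shorter peak, pileups in place of folds and, added after seeing the data, peaks near no other gene and a background of CpG-rich promoters. No test was run, as each group held 1 library. The tools were numpy 2.4.6 with scipy 1.17.1, pandas 2.3.3 and matplotlib 3.10.9, run in Python 3.11.15.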

Additional observations from a re-analysis of the deposited data

How the results depend on the processing

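Of 56 values under alternatives, 44 stayed within 1.5 times a main count or within the interval of a main median, and 12 moved. Within 500 bp, 10 genes had an EpiLC peak (15.2%, beside 4.27% of all genes) and 9 had overlapping peaks. At a fold of at least 5, 19 genes were left in Naive (28.8%, beside 6.83% of all genes), with a median fold of 6.19, and 0 in EpiLC, in both lists and with overlapping peaks. Only 434 EpiLC peaks passed that limit, at 0.676% of all genes, so a count of 0 is near that share. With the Naive list shortened, 14 genes had a Naive peak (21.2%, beside 5.45% of all genes), with a median fold of 6.43, and 9 were in both lists, 9 with overlapping peaks. With recovered pileups the median Naive to EpiLC ratio was 1.23. No paired analysis was possible because each state had 1 library and no test was run. The median pileup at a summit was 24 fragments in Naive and 45 in EpiLC, which limits how small a difference can be seen.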

Other observations

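Genes that carry the same names but fall outside the rule were looked at for the same peaks. None of the 14 pseudogenes named after these factors, such as the copies of Eef1a1 and Eif1, had a gene-end peak in either list. The share over all pseudogenes was not counted, and the handling of reads that match several copies is not stated in the labels. The count therefore does not show that Pcbp1 was absent from these copies. Of the 5 protein-coding genes left out by the rule, Eif2ak3, the endoplasmic reticulum stress kinase, had a Naive peak of 4.996, and Eef1e1 had 6.16 in Naive and 2.73 in EpiLC.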
